A study of Mus musculus with 9 samples.

Results

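The nuclear genes of the mitochondrial respiratory chain were examined in meningeal lymphatic endothelial cells (MLECs) from mice with and without brain tumors. The genes were taken by symbol: those beginning with Nduf, Uqcr or Atp5, those beginning with Cox followed by a digit from 4 to 8, and Sdha, Sdhb, Sdhc and Sdhd. The rule found 92 of the 24321 genes in the expression table. By known function, 36 encode subunits of complex I, 4 of complex II, 8 of complex III, 20 of complex IV and 15 of ATP synthase (complex V), and 9 are assembly or accessory factors that share the names (Ndufaf1 to Ndufaf7, Atp5s and Atp5sl). Ndufa4, which was named for complex I, and its paralog Ndufa4l2 were counted with complex IV, and so was Cox7a2l, a supercomplex factor related to the Cox7a subunits. The 92 genes are called the respiratory chain genes below.

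In the respiratory chain, complexes I and II pass electrons from NADH and succinate to ubiquinone, complex III passes them on to cytochrome c, and complex IV passes them to oxygen. Complexes I, III and IV pump protons across the inner mitochondrial membrane, and complex V uses the return flow to make ATP. Subunits of complexes I, III, IV and V are encoded partly in the nucleus and partly in mitochondrial DNA, whereas complex II is wholly nuclear. Endothelial cells are known to make much of their ATP by glycolysis, and respiration in lymphatic endothelium has been linked to the upkeep of lymphatic identity.

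MLECs were collected from 3 groups of male mice aged 10 weeks: mice given PBS (control), mice given GL261 glioma cells and mice given B16 melanoma cells. The labels give 100000 tumor cells in 5 µL of PBS, given through the cisterna magna, where controls received PBS alone. They give collection about 3 weeks after GL261 and about 2 weeks after B16 cells. The study's methods instead describe injection beneath the dura, with fewer cells, unlike numbers of GL261 and B16 cells, and a smaller volume. Its results give 2 weeks after injection for both tumors, and its methods 2 to 3 weeks. Each group had 3 libraries, each made from 10 sorted cells of the meninges of 6 pooled mice, so that replicates are pools of different animals. Cells were sorted as CD45-negative, CD31-positive and LYVE-1-positive according to the labels, and the study's results name PDPN in place of LYVE-1. Libraries were made by Smart-seq2 with 18 cycles of amplification.

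The values are FPKM (fragments per kilobase of transcript per 1000000 mapped fragments), which are scaled by transcript length so that genes can be set side by side. Across genes they were still lower for longer transcripts, as given below, which limits such comparisons. No read counts were used here, so no counting error can be given for a single value, and a value of 0 is given as listed at 0. By the study's own records, all 3 control libraries held fewer aligned reads than any library of a tumor group, so depth and tumor status cannot be told apart. Genes above 0 numbered 7303 to 8688 in control libraries, 9456 to 10852 in GL261 libraries and 8736 to 9950 in B16 libraries. The FPKM of a library summed to 652636 to 693117 in controls and to 701951 to 888312 in the 6 tumor-associated libraries. The pan-endothelial marker Pecam1 (CD31) was at 149.5 to 468 FPKM in the 9 libraries. The summed FPKM of 10 lymphatic endothelial markers lay between 10675 and 17002 in controls, between 1342 and 3320 in GL261 libraries and between 2616 and 7144 in B16 libraries. The sum of 10 blood endothelial markers lay between 2363 and 3157 in controls, between 6665 and 9599 in GL261 libraries and between 6077 and 8579 in B16 libraries. The lymphatic sum was carried by Ccl21c, at 7384 to 13803 FPKM in controls, and also counts the pan-endothelial Pecam1 and Cdh5. Without Ccl21c it was 2810 to 3292 FPKM in controls (lowest to highest), 1200.3 to 2674 FPKM in GL261 and 1413 to 2957 FPKM in B16, so that B16 overlapped the controls. Lyve1, a sort marker by the labels, was the largest part of this remainder in every library. Lyve1, Pdpn and Cdh5 overlapped between control and tumor-associated libraries, and Pecam1 was higher in every tumor-associated library. Prox1, Flt4, Mmrn1, Reln and the barely detected Ccl21a were lower in every tumor-associated library than in every control. Prox1 was at 20.9 to 42.2 FPKM in controls, at 1.87, 1.98 and 16.5 FPKM in GL261 and at 2.37 to 3.72 FPKM in B16. The blood endothelial sum did not overlap between control and tumor-associated libraries, but its members did not all go the same way. Flt1, Cd34, Emcn, Esam, Plvap, Vwf and Ly6c1 were higher in every tumor-associated library than in every control. Cldn5 was at 1497 to 1702 FPKM in controls, 698 to 890 FPKM in GL261 and 1136 to 1679 FPKM in B16. Kdr overlapped between control and tumor-associated libraries, and Slco1a4 was at 0.371 FPKM or less. The sum of 7 myeloid markers was 699 FPKM in GL261 replicate 2 and at most 229 FPKM in any other library. The part of these markers in the differences given below was not tested. In libraries of this kind, fewer cells of a type and less RNA per cell cannot be told apart.

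Respiratory chain mRNA made up a similar share of the transcriptome in the 3 groups. The 92 genes took 4.98%, 5.17% and 5.28% of all FPKM in the control libraries, 5.51%, 4.71% and 4.69% in the GL261 libraries, and 4.40%, 5.31% and 5.68% in the B16 libraries. The group means were 5.15% ± 0.151 (SD, n = 3), 4.97% ± 0.468 (SD, n = 3) and 5.13% ± 0.658 (SD, n = 3), so the groups differed by less than the spread among B16 libraries. Between 46 and 55 of the 92 genes ranked among the 500 highest genes of each library. Of the 92 genes, 78 were above 0 in all 9 libraries, 68 had a mean of at least 100 FPKM, and 4 were listed at 0 in every library. The table held 0 of the 13 mitochondrially encoded subunits, so the mitochondrially encoded side of these enzymes was not analysed here.

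The share was not split evenly among the complexes. Complex IV took the most, with 1.69% ± 0.118 of all FPKM in control MLECs (SD, n = 3), followed by complex I with 1.56% ± 0.157 and complex V with 1.21% ± 0.111. Complex III took 0.573% ± 0.021 and complex II only 0.0897% ± 0.00896. Each of complexes I, III, IV and V overlapped between the 3 groups of libraries. The widest range was in B16 MLECs for complex V, where B16 replicate 1 stood at 0.848% and the other libraries at 1.28% and 1.35%.

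**Figure D1:**
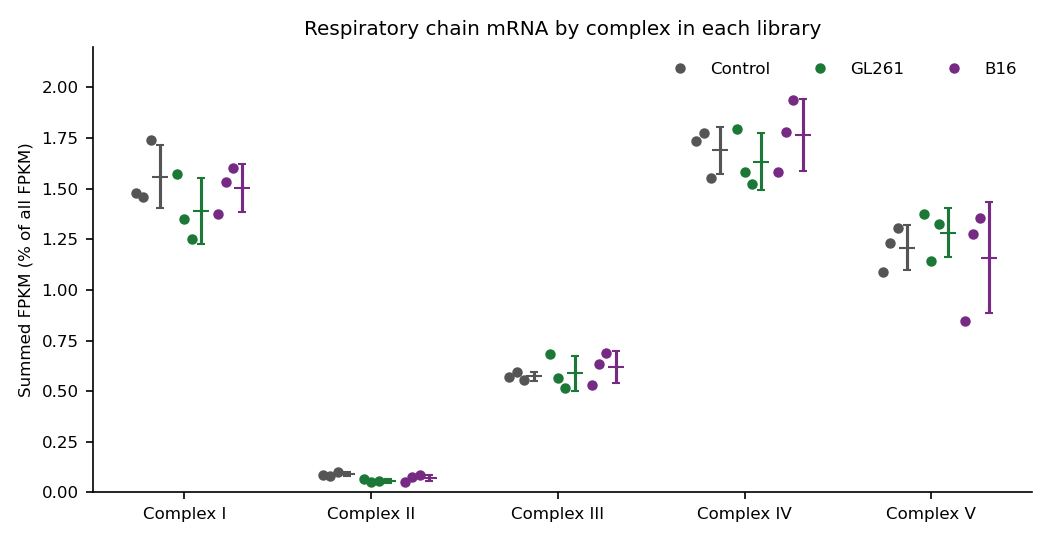
Summed FPKM of the subunit genes of each complex as a percent of all FPKM in a library (vertical axis), for complexes I to V (horizontal axis). Points are single libraries, 3 per group, and bars give the mean and SD; the groups overlap for complexes I, III, IV and V, and the 3 GL261 values of complex II (0.0490% to 0.0679%) lie under the control values (0.0822% to 0.0996%). As summed FPKM, not shown here, the GL261 and control libraries just overlap for complex II.

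Complex II, succinate dehydrogenase, and the assembly factors were the exceptions to this overlap. Complex II stood at 0.0873%, 0.0822% and 0.0996% in controls and at 0.0679%, 0.0490% and 0.0557% in GL261 libraries, which lay below all controls. As summed FPKM the groups just overlapped, at 569.5 to 650.0 FPKM in controls and 427.9 to 569.7 FPKM in GL261 libraries. The summed FPKM of complex V did not overlap, at 7229 to 8548 FPKM in controls and 10171 to 11536 FPKM in GL261 libraries. The B16 libraries, at 0.0538%, 0.0755% and 0.0853% for complex II, overlapped the controls. The 9 assembly and accessory factors together took 0.0244% to 0.0279% in controls, 0.0113% to 0.0197% in GL261 libraries and 0.0143% to 0.0178% in B16 libraries, so that every tumor-associated library was below every control in this share. As summed FPKM, the highest GL261 library (165.2 FPKM) overlapped the controls (162.3 to 182.3 FPKM). The B16 libraries stayed below the controls, at 136.4 FPKM or less. No test was made of these sums.

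In complexes I and III, accessory subunits had a higher median level than the genes counted as core. The core genes of complex III counted here do not include Cyc1, which falls outside the naming rule, or the mitochondrially encoded subunit. The 7 core subunits of complex I, which hold its flavin and iron-sulfur centers, had a median of 119 FPKM over their means, and the 29 accessory subunits had a median of 347 FPKM. In complex III, the 3 core genes Uqcrc1, Uqcrc2 and Uqcrfs1 (the Rieske iron-sulfur protein) had a median of 116 FPKM and the 5 accessory genes one of 881 FPKM. The 5 highest genes of the 92 were Cox6a1 with a mean of 2239 FPKM over the 9 libraries, Cox6b1 with 1660 FPKM, Cox4i1 with 1657 FPKM, Cox8a with 1379 FPKM and Atp5e, the epsilon subunit of the F1 head, with 1348 FPKM. The 3 highest genes were Ndufa3 (1077 FPKM), Ndufc2 (737 FPKM) and Ndufb4 (690.0 FPKM) in complex I, Uqcrh (911 FPKM), Uqcrb (904 FPKM) and Uqcr10 (881 FPKM) in complex III, and Atp5e, Atp5h (1072 FPKM) and Atp5l (1070.3 FPKM) in complex V. Neighbours in these orders were close: Cox6b1 ranged from 1097 to 1932 FPKM and Cox4i1 from 1106 to 2430 FPKM over the libraries.

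Levels were higher for shorter transcripts. For the 76 subunit genes that passed the filter and had a transcript in the GENCODE M1 annotation (mm9), Spearman's rho between mean FPKM and transcript length was -0.66. Over all 8993 tested genes with a length it was -0.54. The subunit transcripts were short, with a median of 868 bases against 2799 bases for all tested genes, and the core subunits of complex I had a median of 1540 bases. The correlation is across genes that share the same 9 libraries, and the part of length in the level was not tested.

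**Figure D2:**
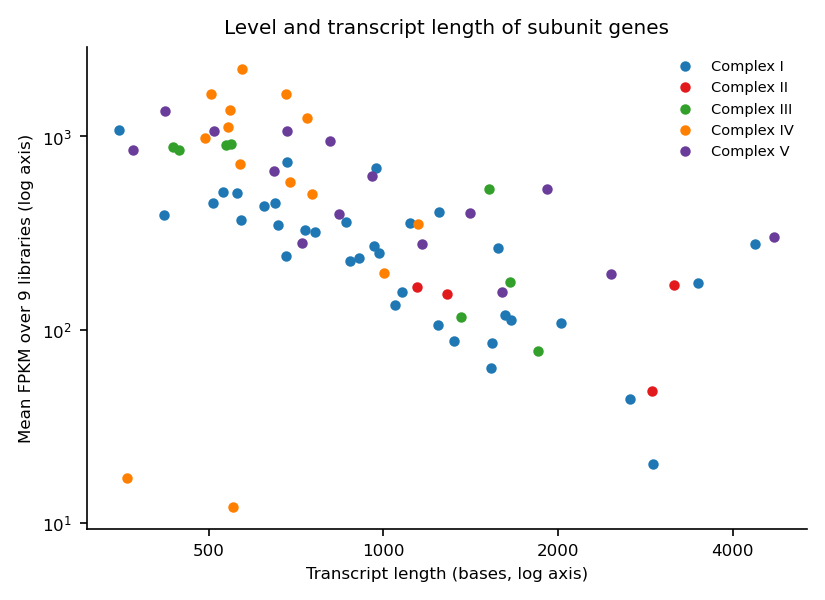
Mean FPKM over the 9 libraries (vertical axis, log scale) against transcript length in bases (horizontal axis, log scale) for the 76 subunit genes with a length, 1 point per gene, coloured by complex. Short transcripts stand higher, with rho = -0.66; the 2 low orange points are Cox8b and Cox6b2, isoforms of complex IV that were listed at 0 in several libraries.

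**Figure D3:**
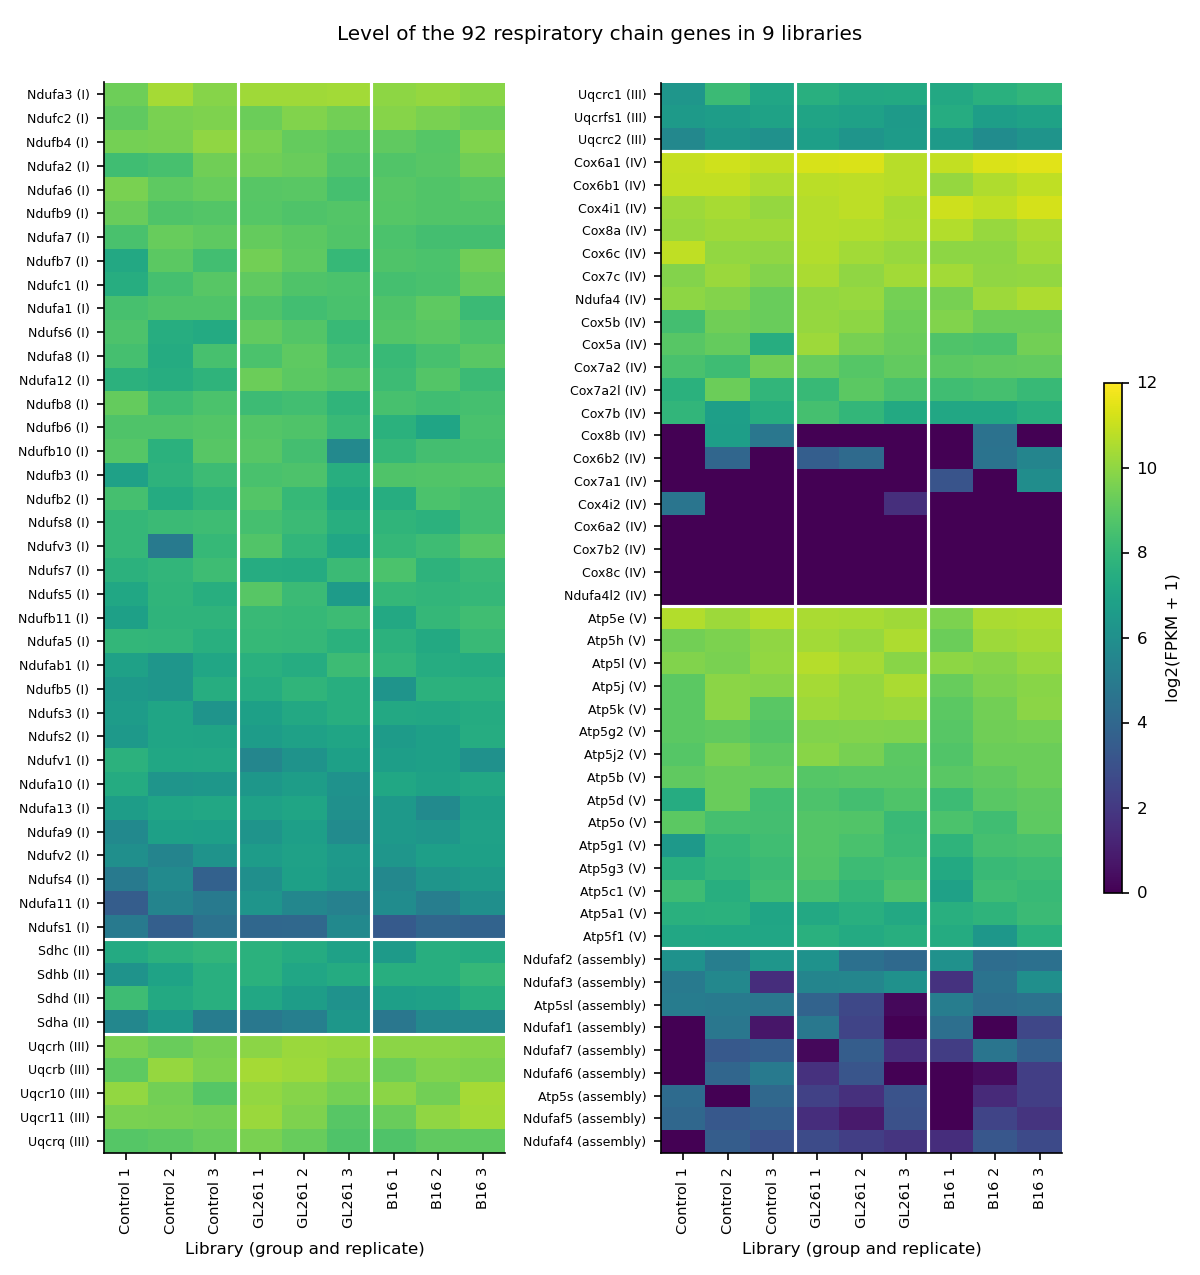
Level of each of the 92 genes (rows, by complex and then by mean level) in each of the 9 libraries (columns), as log2(FPKM + 1). Most rows are even across the columns. The dark rows are the tissue isoforms of complex IV, listed at 0 in several or all libraries, and the assembly factors. Of the assembly factors, Ndufaf2, Ndufaf3 and Atp5sl were above 0 in every library, and the others were listed at 0 in at least 1.

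Complex IV genes with tissue isoforms were read mainly from the general isoform. Cox4i1 made up 98.02% to 100% of the Cox4i1 and Cox4i2 sum in each library, and Cox6a1 and Cox7b made up 100% of theirs. The lowest share of Cox8a was 92.1%, in control replicate 2, and Cox7a1 reached 6.58% of the Cox7a genes in B16 replicate 3. Cox4i2, an isoform known from lung and from oxygen-sensing cells, was at 24.8 FPKM in control replicate 1, at 2.06 FPKM in GL261 replicate 3, and listed at 0 in the other libraries. Control replicate 1 was also the library with mural cell transcripts: Acta2 was at 505 FPKM and Tagln at 641 FPKM, and the 8 mural and smooth muscle markers summed to 1210 FPKM there and to at most 11.4 FPKM in any other library. The part of mural RNA in the Cox4i2 value was not tested. Cox6a2, Cox7b2, Cox8c and Ndufa4l2 were listed at 0 in all 9 libraries.

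Cox8b and Cox7a1, isoforms known from striated muscle and brown fat, appeared in single libraries. Cox8b was at 105.5 and 26.3 FPKM in control replicates 2 and 3, at 21.9 FPKM in B16 replicate 2, and listed at 0 in the other 6 libraries, where Cox8a made up all of the sum. Cox7a1 was at 7.67 and 57.6 FPKM in B16 replicates 1 and 3 and listed at 0 elsewhere. Of 11 striated muscle markers, 9 were listed at 0 in every library, and their sum was at most 1.22 FPKM. All 4 brown adipocyte markers were listed at 0 in every library. Cox6b2, an isoform known from testis, was at 14.5 FPKM in control replicate 2, at 11.0 and 16.8 FPKM in GL261 replicates 1 and 2, and at 22.5 and 43.4 FPKM in B16 replicates 2 and 3.

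Expression differences were tested with limma on log2(FPKM + 1), a scale on which changes of low genes look smaller than they are, over 9955 genes with at least 1 FPKM in at least 3 libraries. Of the 92 genes, 86 were tested; Cox4i2, Cox6a2, Cox7a1, Cox7b2, Cox8c and Ndufa4l2 did not pass the filter. Differences with a Benjamini-Hochberg adjusted p under 0.05 are called. GL261 and B16 were each set against control, were joined against control as in the study, and were set against each other. The comparisons with control share the same 3 control libraries. By the labels, time after injection differed between GL261 and B16, and by the study's methods the number of injected cells did. Tumor type therefore cannot be told apart from time or cell number in any difference between GL261 and B16.

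Of the 86 genes, 1 was called, and it lay in complex I. In GL261 against control, 1 gene (Ndufa12) was called, which is 1.16% of the 86, where 3.49% of all tested genes were called. In B16 against control 0 of 86 were called, where 2.11% of all genes were, and with both tumors joined 0 of 86, where 3.93% of all genes were. In GL261 against B16, 0 of 86 were called, where 0.01% of all genes were. At an unadjusted p under 0.05 in the same limma fits, 14 of 86 passed in GL261 against control (16.9% of all genes did), 9 in B16 against control (15% of all genes), 14 with the tumors joined (19% of all genes) and 4 in GL261 against B16 (5.5% of all genes). These shares of the respiratory chain genes (16.3%, 10.5%, 16.3% and 4.65%) were all under those of all genes.

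As a group, the respiratory chain genes differed between conditions by about as much as the median gene, as deposited and after rescaling. Their median difference in log2(FPKM + 1) was 0.25 in GL261 against control, where the median of all tested genes was 0.23. It was 0.18 in B16 against control (all genes 0.20), 0.22 with the tumors joined (all genes 0.20) and 0.09 in GL261 against B16 (all genes 0.01). Relative to the median of all genes the group stood at 0.02, -0.02, 0.02 and 0.08. Rescaling each library to the same FPKM sum shifted the median of all genes by -0.21, -0.09, -0.15 and -0.13 in the same order, and the group then stood at -0.07, -0.07, -0.04 and 0.05 relative to it. With aligned reads as a covariate it stood lower, at -0.30, -0.21, -0.21 and -0.03 relative to all genes. As deposited, 57 of the 86 genes had a higher mean in GL261 than in control (66.3%, where 57.5% of all genes did), and 42 of 86 after rescaling. In B16 against control the counts were 53 (61.6%, all genes 57.0%) and 45, with the tumors joined 58 (67.4%, all genes 57.2%) and 43, and in GL261 against B16 they were 49 (57.0%, all genes 50.6%) and 38.

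A larger share of these genes than of all genes had a difference whose 95% interval lay within a doubling either way, that is between -1 and 1 in log2(FPKM + 1). This held for 36 of 86 genes (41.9%) with the tumors joined (3.69% of all genes), 24 of 86 (27.9%) in GL261 against control (2.17% of all genes), 33 of 86 (38.4%) in B16 against control (2.9% of all genes) and 37 of 86 (43%) in GL261 against B16 (3.29% of all genes). In the first of these, 14 of the 36 were in complex I, 5 in complex III, 8 in complex IV and 9 in complex V. The intervals follow the spread between libraries, which was small for these genes. The median SD within groups was 0.42 in log2(FPKM + 1) for the 86 genes and 1.07 for all tested genes. Among genes with a mean of at least 100 FPKM it was 0.38 for 68 respiratory chain genes and 0.46 for all 984, so the gap was smaller among genes of like level. The steadiest were Atp5b, which encodes the catalytic beta subunit of the F1 head, with an SD of 0.13, Uqcrh with 0.14, Cox8a with 0.15 and Cox4i1 with 0.18. The 9 assembly factors had a median SD of 1.58.

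**Figure D4:**
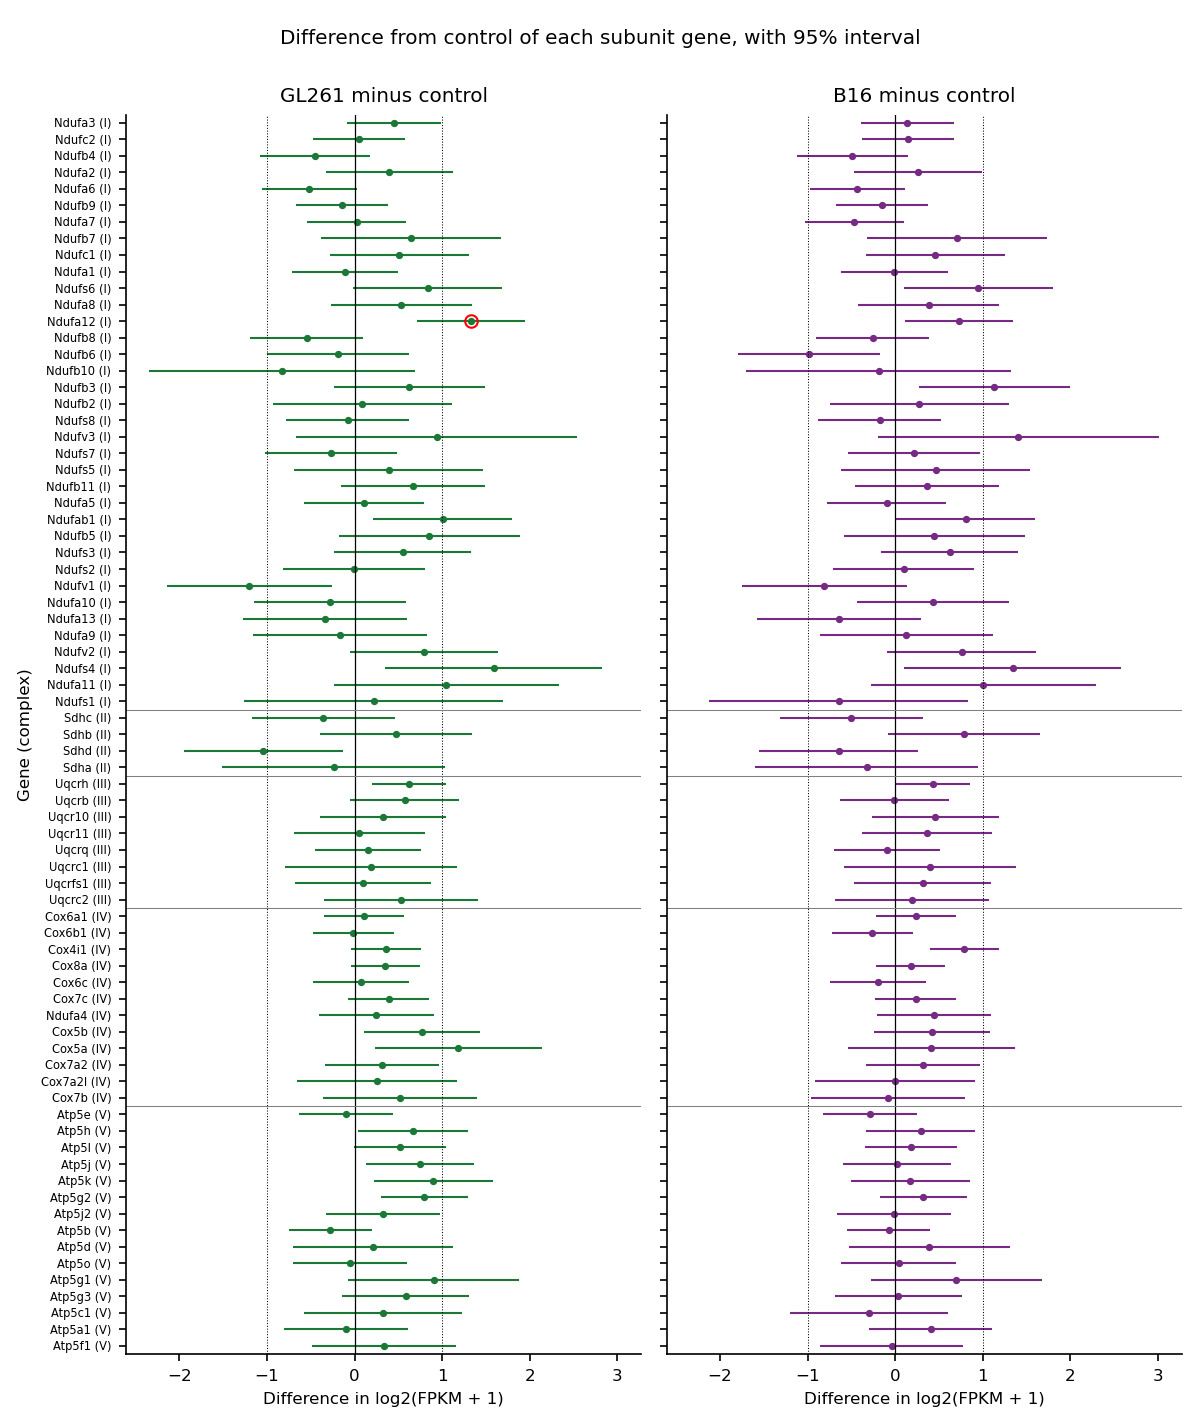
Difference in log2(FPKM + 1) from control (horizontal axis) of each tested subunit gene (vertical axis, by complex and then by mean level; Cox8b and Cox6b2 are left out) in GL261 and B16 MLECs. Points are limma estimates, bars their 95% intervals, dotted lines mark a doubling either way, and the red ring marks the called gene, Ndufa12 (1.33 in GL261).

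Complex I held the called gene. Ndufa12 encodes an accessory subunit that takes the place of the assembly factor Ndufaf2 late in the building of the complex. It was at 208, 179.8 and 222 FPKM in control libraries, at 626, 495 and 428 FPKM in GL261 libraries and at 299, 443 and 289 FPKM in B16 libraries. Every tumor-associated library stood above every control, and GL261 and B16 libraries overlapped. In GL261 the difference from control in log2(FPKM + 1) was 1.33 (SE 0.28, 95% interval 0.71 to 1.95, limma adjusted p = 0.0263), and with the tumors joined it was 1.03 (SE 0.29, limma adjusted p = 0.0663). The GL261 call was lost without control replicate 1 (difference 1.35, limma adjusted p = 0.0536) or 2 (1.24, adjusted p = 0.0582) and without GL261 replicate 1 (1.18, adjusted p = 0.131), 2 (1.35, adjusted p = 0.0993) or 3 (1.45, adjusted p = 0.0506). It was also lost after rescaling (difference 1.02, adjusted p = 0.0956). The gene lies at chr10:93661700-93684188 on the plus strand (mm9). A stretch at chr5:130664263-130664666 is 99.5% identical to 89.8% of its coding sequence, so its value may include reads that cannot be placed.

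Other complex I genes differed in both directions without passing the adjusted threshold. Ndufv1, the core subunit that holds the NADH site and flavin, was at 209, 142 and 146 FPKM in controls, at 44.1, 70.6 and 111 FPKM in GL261 and at 105.5, 113 and 66.8 FPKM in B16 libraries. All 6 tumor-associated libraries were below all 3 controls. The difference with the tumors joined was -1.005 (SE 0.38, limma adjusted p = 0.170) and that in GL261 was -1.20 (SE 0.43, limma adjusted p = 0.171). Ndufs4, an accessory subunit of the same NADH-oxidizing arm, was at 29.8, 52.5 and 12.1 FPKM in controls, at 62.7, 112 and 80.04 FPKM in GL261 and at 47.5, 76.7 and 92.1 FPKM in B16 libraries. The GL261 libraries were above the controls as deposited and overlapped them after rescaling, and B16 replicate 1 fell below control replicate 2. Its difference with the tumors joined was 1.46 (SE 0.48, limma adjusted p = 0.112).

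Ndufab1, the mitochondrial acyl carrier protein, was at 77.6 to 137 FPKM in controls and at 165 to 302 FPKM in the tumor-associated libraries, without overlap as deposited and with overlap after rescaling. It has near copies of up to 99.8% identity to its coding sequence. In B16 MLECs, Ndufb6 was at 199.3, 132 and 376 FPKM, below the controls at 415, 419 and 443 FPKM, with a difference of -0.98 (SE 0.37, limma adjusted p = 0.233). Ndufb3 was at 415, 431 and 447 FPKM in B16, above the controls at 117, 217 and 296 FPKM, with a difference of 1.13 (SE 0.39, limma adjusted p = 0.196), and it has 1 near copy of 96.8% identity. Both are accessory subunits of the membrane arm. Ndufv3 overlapped between B16 (250.03 to 469 FPKM) and control libraries (29.7 to 261 FPKM), with a difference of 1.40 (SE 0.73, limma adjusted p = 0.400). Ndufa11 was at 10.8 to 42.1 FPKM in controls and at 34.3 to 75.0 FPKM in the tumor-associated libraries, which overlapped. Ndufa10 was lower in GL261 (67.9 to 99.9 FPKM) than in B16 libraries (121 to 144 FPKM) without overlap, a difference of -0.71 (SE 0.40, limma adjusted p = 0.998). All 3 are accessory subunits. Of the 36 complex I genes, 22 were higher and 14 lower in GL261 than in control, and 17 were higher after rescaling.

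The 4 subunits of complex II did not share an order of group means, and 0 of 4 were called. Sdhd, a membrane anchor, was at 304, 153 and 190.0 FPKM in controls, at 144, 101 and 67.9 FPKM in GL261 and at 107, 115 and 186 FPKM in B16 libraries. The GL261 libraries lay below the controls and the B16 libraries overlapped them. In GL261 the difference in log2(FPKM + 1) was -1.04 (SE 0.42, limma adjusted p = 0.220). Sdha, the flavoprotein, had means of 54.8, 47.5 and 41.5 FPKM in control, GL261 and B16 MLECs, and Sdhc, the other anchor, had means of 202, 159.5 and 146 FPKM. Sdhb, the iron-sulfur subunit, had the opposite order of means, 128, 166 and 207 FPKM.

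In complex III, all 8 genes had a higher mean in GL261 than in control in log2(FPKM + 1), with differences of 0.06 to 0.62, but only 4 of 8 were higher after rescaling, and 0 of 8 were called. Uqcrh, the hinge protein between cytochrome c1 and cytochrome c, was at 779, 602 and 738 FPKM in controls, at 979, 1159 and 1110 FPKM in GL261 and at 970.2, 971 and 896 FPKM in B16 libraries. As deposited the 3 groups did not overlap, with controls lowest and GL261 libraries highest, but after rescaling GL261 libraries overlapped both other groups. The GL261 difference from control was 0.62 (SE 0.19, limma adjusted p = 0.117). The gene of cytochrome c1, Cyc1, falls outside the naming rule and ranged from 3.88 to 176 FPKM in the control libraries alone.

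In complex IV, Cox4i1 came closest to a call in B16 MLECs. It was at 1223, 1383 and 1106 FPKM in controls, at 1604, 1766 and 1396 FPKM in GL261 and at 2149, 1854 and 2430 FPKM in B16 libraries. The B16 libraries stood above all others, and the lowest GL261 library was just above the highest control. After rescaling the B16 libraries still stood above all others, and GL261 libraries overlapped the controls. The difference between B16 and control was 0.79 (SE 0.18, 95% interval 0.39 to 1.19, limma adjusted p = 0.0501). It was called with a pseudocount of 0.1 (limma adjusted p = 0.0492) and with a filter at a mean of 10 FPKM (adjusted p = 0.0379). It was not called after rescaling, after quantile normalization, without a trend, with the replicate block or with aligned reads as a covariate. Cox4i1 lies at chr8:123192190-123198109 on the plus strand (mm9), and no near copy of its coding sequence was found. Cox5a was at 468, 565 and 176 FPKM in controls and at 1199, 745 and 614 FPKM in GL261 libraries, a difference of 1.18 (SE 0.44, limma adjusted p = 0.181). The B16 values of Cox5a, 411, 383 and 693 FPKM, overlapped the controls. Cox8b, which is on a list of lowered genes that the study chose on these samples, had a difference of -3.84 in GL261 (SE 1.63, limma adjusted p = 0.257), which rests on its values in 2 control libraries.

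Complex V held 7 of the 21 genes whose GL261 and control libraries did not overlap. For all tested genes, 22.5% did not overlap in this comparison, and 24.4% of the 86 did not. The 7 were Atp5b, lower in GL261, and Atp5f1, Atp5g2, Atp5g3, Atp5h, Atp5j and Atp5k, all higher as deposited. In B16 against control, 12 of the 86 genes (14%) did not overlap, where 17.2% of all genes did not, and 0 of the 12 were in complex V. With the tumors joined, 8 of 86 (9.3%) did not overlap, where 10.5% of all genes did not. In GL261 against B16, 12 of 86 (14%) did not overlap, where 13.8% of all genes did not. After rescaling, 18 of 86 genes (20.9%, all genes 22.6%) did not overlap in GL261 against control, of which 3 were higher and 15 lower, and 3 of the 18 were in complex V: Atp5g2 (higher), Atp5b and Atp5e (lower).

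Subunit c, which forms the proton-driven rotor ring, is encoded by the 3 genes Atp5g1, Atp5g2 and Atp5g3. Their mature proteins are known to be the same, while the coding sequences differ, so the sequences are shown because reads can be told apart only where the letters differ. The last 90 coding bases before the stop codon (mm9 transcripts, coding strand, 5′ to 3′) are given here, with capitals where a base differs from Atp5g2.
Atp5g2: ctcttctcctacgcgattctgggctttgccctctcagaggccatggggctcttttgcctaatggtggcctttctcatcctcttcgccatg
Atp5g1: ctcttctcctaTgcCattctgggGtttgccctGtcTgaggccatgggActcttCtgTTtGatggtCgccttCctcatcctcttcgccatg
Atp5g3: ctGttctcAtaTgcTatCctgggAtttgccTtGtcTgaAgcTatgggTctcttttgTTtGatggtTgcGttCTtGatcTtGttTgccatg

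Atp5g1 differed from Atp5g2 at 12 of these 90 bases and Atp5g3 at 23. Over the 225 bases of the mature part, Atp5g1 was 84.9% and Atp5g3 78.7% identical to Atp5g2, with longest identical runs of 20 and 8 bases, far under the read length. Atp5g2 was the main source in every group, with 53.1% ± 10.9 of the sum of the 3 genes in control, 54.6% ± 4.67 in GL261 and 52.7% ± 2.33 in B16 MLECs (SD, n = 3). The sum itself was 779, 1026 and 1050.4 FPKM in controls, 1710.1, 1561 and 1463 FPKM in GL261 and 860.0, 1317 and 1414 FPKM in B16 libraries. As deposited the GL261 libraries stood above all others, and B16 and control libraries overlapped. After rescaling, GL261 replicate 2 fell below B16 replicates 2 and 3. The share of Atp5g2 in the sum overlapped between all groups. Atp5g2 has 3 near copies in the genome, of at least 95% identity over at least 80% of the coding sequence and up to 100%, and Atp5g1 has 1 of 99.8%, so their values may include reads that cannot be placed. In all, 21 of the 88 genes with a coding sequence had such a copy.

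As deposited, 5 genes set the GL261 libraries apart from both other groups, which is 5.81% of the 86, where 4.56% of all tested genes did so. Atp5g2 was at 841 to 886 FPKM in GL261 and at 446 to 722 FPKM in the other 6 libraries. Atp5j, part of the peripheral stalk, was at 1085 to 1429 FPKM against 502 to 955 FPKM. Atp5k, the small membrane subunit e, was at 1082 to 1218 FPKM against 488 to 977 FPKM. Uqcrh, described above, was the fourth, and the assembly factor Atp5sl was lower, at 0.188 to 13.2 FPKM against 20.1 to 32.97 FPKM. After rescaling, only Atp5g2 and Atp5sl of these 5 still stood apart, beside Atp5b, Ndufa6 and Ndufb8 (lower), and 4.46% of all genes did so. None of these differences was called. Against control they were 0.79 for Atp5g2 (SE 0.23, limma adjusted p = 0.0902), 0.75 for Atp5j (SE 0.28, limma adjusted p = 0.193), 0.90 for Atp5k (SE 0.31, limma adjusted p = 0.154) and -2.67 for Atp5sl (SE 0.85, limma adjusted p = 0.125). Atp5k was called without control replicate 2, its highest control (difference 1.22, limma adjusted p = 0.0481). Against B16 the adjusted p of the 5 genes was 0.694 or more.

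**Figure D5:**
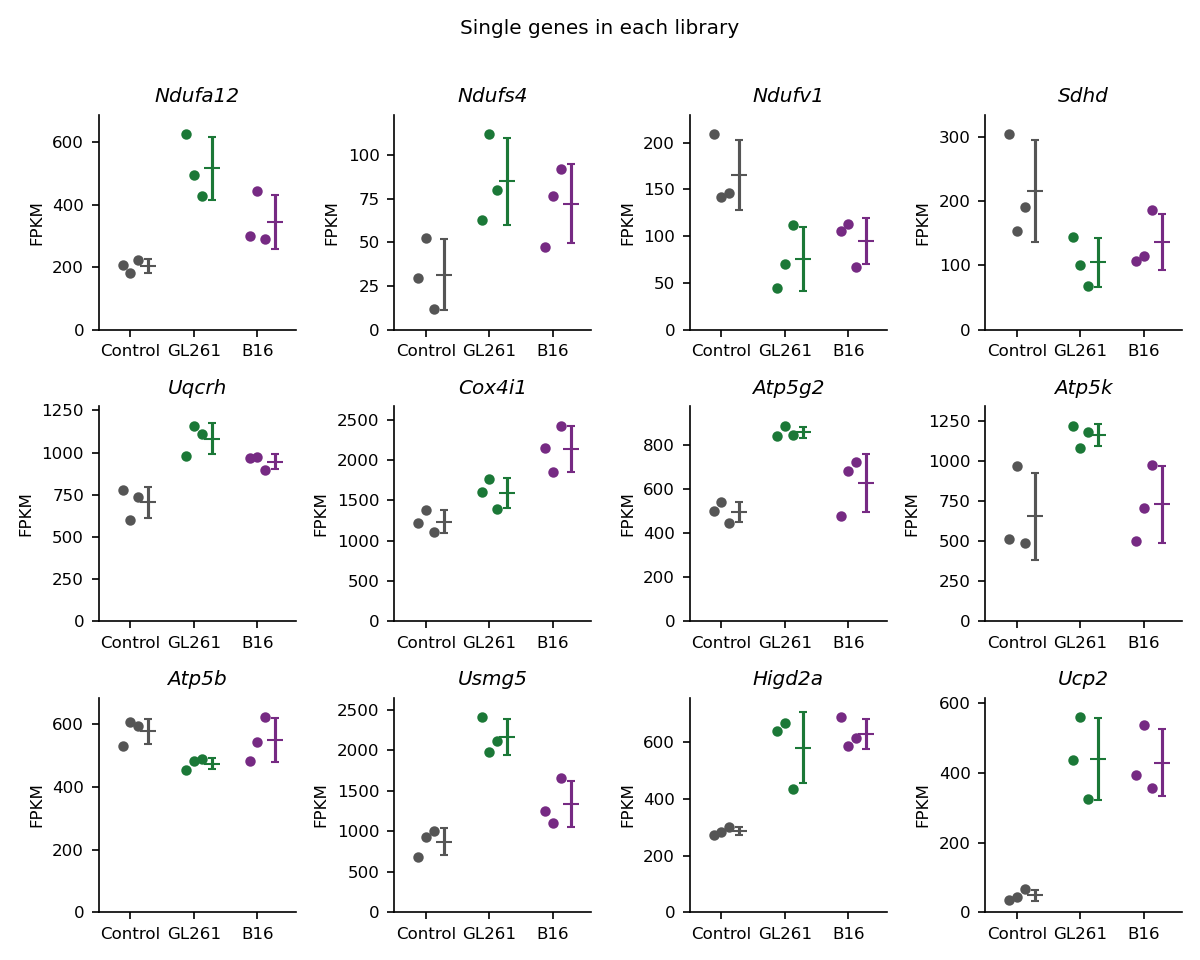
FPKM of 12 genes (vertical axis, from 0) in the 3 groups (horizontal axis); points are libraries and bars give the mean and SD of 3. Ndufa12, Usmg5, Higd2a and Ucp2 have a called difference between GL261 and control; Atp5b stays within 454 to 623 FPKM in all 9 libraries.

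The promoters of Atp5g2, Atp5k and Uqcrh are shown as examples of where the letters searched below lie, and were chosen after the matches were seen. Atp5j, which also stood apart as deposited, has 2 annotated starts, and neither promoter holds the NRF1 or GABPA letters. The second Atp5j promoter and that of Atp5sl hold the YY1 letters given below. The promoter of Ndufa12, the called gene, holds none of the letters searched. Each stretch runs from 250 bases before to 50 bases after the annotated start (RefSeq, GRCm38.p6, gene strand, 5′ to 3′). Capitals mark the letters searched for nuclear respiratory factor 1 (NRF1, GCGCATGC) in Atp5g2 and Atp5k and for GABPA (CCGGAAGT) in Uqcrh, on either strand; the NRF1 letters on both strands overlap there.
Atp5g2, chr15:102670998-102671297, minus strand: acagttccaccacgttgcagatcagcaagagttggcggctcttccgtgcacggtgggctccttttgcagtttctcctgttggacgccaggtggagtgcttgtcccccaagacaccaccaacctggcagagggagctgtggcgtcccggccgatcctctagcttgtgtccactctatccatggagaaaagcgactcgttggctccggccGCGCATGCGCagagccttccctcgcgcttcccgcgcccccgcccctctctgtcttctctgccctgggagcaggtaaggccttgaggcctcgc
Atp5k, chr5:108434350-108434649, minus strand: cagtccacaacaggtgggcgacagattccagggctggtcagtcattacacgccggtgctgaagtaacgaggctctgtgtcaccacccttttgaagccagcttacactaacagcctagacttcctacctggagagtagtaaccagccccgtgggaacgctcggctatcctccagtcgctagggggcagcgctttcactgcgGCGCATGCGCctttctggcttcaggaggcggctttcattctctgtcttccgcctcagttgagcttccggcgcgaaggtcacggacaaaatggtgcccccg
Uqcrh, chr4:116075021-116075320, minus strand: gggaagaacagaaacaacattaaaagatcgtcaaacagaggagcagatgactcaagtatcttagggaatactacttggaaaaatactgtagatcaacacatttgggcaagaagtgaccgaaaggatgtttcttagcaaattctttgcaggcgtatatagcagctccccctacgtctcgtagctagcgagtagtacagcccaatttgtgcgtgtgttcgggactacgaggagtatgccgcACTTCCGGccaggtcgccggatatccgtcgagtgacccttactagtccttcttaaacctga

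A promoter was found for 66 of the 77 tested subunit genes. The NRF1 letters stood in 10 of these 66 promoters (15.2%) and in 3.94% of 17492 promoters of all genes. The letters for YY1 (AAGATGGC) stood in 10 of 66 (15.2%) and in 3.57% of all, those for GABPA in 5 of 66 (7.58%) and in 5.69% of all, and those of the cyclic AMP response element (CRE, TGACGTCA) in 4 of 66 (6.06%) and in 2.54% of all. NRF1, GABPA and YY1 are known regulators of nuclear respiratory genes, and 24 of the 66 promoters (36.4%) held the letters of at least 1 of them, as did 12.3% of all promoters. The matches describe the sequence and do not show binding.

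The 9 assembly factors within the naming rule were low and uneven, with a median of 8.08 FPKM over their means. Ndufaf2 was the highest, at 68.2, 33.8 and 79.0 FPKM in controls, 68.1, 20.4 and 16.2 FPKM in GL261 and 66.9, 18.3 and 20.2 FPKM in B16 libraries. In 4 of the 6 tumor-associated libraries it was below all controls. Ndufaf5 was at 14.8, 8.98 and 10.9 FPKM in controls and at most 7.00 FPKM in the tumor-associated libraries, without overlap, and its difference with the tumors joined was -2.004 (SE 0.79, limma adjusted p = 0.189). Ndufaf3, Ndufaf6, Ndufaf7 and Atp5s, also among the largest or smallest differences of a comparison, ranged widely within groups: Ndufaf3 was at 2.36 to 62.2 FPKM in B16, and Ndufaf6, Ndufaf7 and Atp5s were each listed at 0 in at least 1 control library. None of the 9 was called.

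Other genes of the pathway were taken from lists of known function. Of 33 further assembly factors tested, of 16 tricarboxylic acid cycle genes and of 10 genes of the outer membrane and of mitochondrial fusion, 0 were called in any of the 4 comparisons. Of 21 tested genes for electron carriers, ATP synthase partners and inner membrane carriers, 3 were called, all higher: Usmg5, Ucp2 and Higd2a in GL261 (all genes 3.49%), and Ucp2 and Higd2a in B16 (all genes 2.11%) and with the tumors joined (all genes 3.93%). Ucp2, a carrier of the uncoupling protein family, was at 35.7, 44.5 and 67.2 FPKM in controls, at 436, 559.8 and 325 FPKM in GL261 and at 393, 538 and 357 FPKM in B16 libraries. Its differences in log2(FPKM + 1) were 3.15 in GL261 (SE 0.35, limma adjusted p = 9.5e-04) and 3.13 in B16 (SE 0.35, limma adjusted p = 0.00168). They passed the threshold in 16 of 17 alternative fits, the exception being the fit with aligned reads as a covariate (adjusted p = 0.387 and 0.0907).

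Usmg5, a small subunit of ATP synthase that does not carry the Atp5 name, was at 685, 927 and 1008 FPKM in controls, at 2410.3, 1974 and 2116 FPKM in GL261 and at 1255, 1104 and 1654 FPKM in B16 libraries. The 3 groups did not overlap. The difference was 1.32 in GL261 against control (SE 0.22, limma adjusted p = 0.00759), 0.61 in B16 against control (SE 0.22, limma adjusted p = 0.206) and 0.71 in GL261 against B16 (SE 0.22, limma adjusted p = 0.509). The GL261 call held in 13 of 17 alternative fits. 2010107E04Rik, another small ATP synthase subunit, had differences of 0.33 and 0.00 in the 2 tumors and was not called.

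Higd2a, which helps complex IV join supercomplexes, was at 272, 284 and 299.9 FPKM in controls, at 639, 668 and 435 FPKM in GL261 and at 688, 585 and 614 FPKM in B16 libraries. Its difference with the tumors joined was 1.07 (SE 0.22, limma adjusted p = 0.0170), which passed in 12 of 17 alternative fits and not after rescaling (0.84, adjusted p = 0.0531). In GL261 alone it was 1.00 (limma adjusted p = 0.0486) and in B16 alone 1.14 (limma adjusted p = 0.0373), which passed in 3 and 4 of 17. Among regulators of respiratory genes and mitochondrial DNA, 10 of 14 were tested and 1, Hif1a, was called with the tumors joined (all genes 3.93%), at 3.20 to 20.5 FPKM in controls and 29.3 to 96.2 FPKM in tumor-associated libraries. Its difference was 2.36 (SE 0.59, limma adjusted p = 0.0434), which passed in 4 of 17 alternative fits and not without control replicate 1 (1.64, adjusted p = 0.129). Ppargc1a and Ppargc1b, coactivators of mitochondrial biogenesis, were listed at 0 in all libraries.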

How the data were processed

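The expression table holds 9 libraries of MLECs, 3 for each of control, GL261 and B16. The authors aligned reads to mm9 with TopHat 2.0.12 and deposited FPKM per gene symbol and library, computed with Cufflinks 2.2.1; the gene annotation is not given in the sources used here. FPKM were used as deposited, without further scaling. Differences were tested on log2(FPKM + 1) with limma 3.58.1 (R 4.3.3; linear fits, moderated with a trend by eBayes, two-sided) over the 9955 genes that reached 1 FPKM in 3 or more libraries. P-values were adjusted over all 9955 by Benjamini-Hochberg, and 0.05 was the threshold. All 9 libraries entered each fit, in 3 groups, or in 2 groups with the tumors joined. The script was tested on simulated data. Members and gene lists were chosen with earlier results of these data known. Named genes were those called, the 5 largest and 5 smallest differences per comparison, the 3 highest per complex, isoform pairs, complex II, and genes whose GL261 libraries did not overlap the rest; Ndufab1, Cyc1, Ppargc1a, Ppargc1b and 2010107E04Rik were chosen after their values were seen. Genes were located by symbol in GENCODE M1 (88 of 92), and near copies were found with minimap2 2.31 on the mm9 genome. Promoters came from RefSeq (76 of 92 genes matched). Tables and figures used Python 3.11.15, numpy 2.4.6, pandas 2.3.3 and matplotlib 3.10.9. Alternatives were a pseudocount of 0.1, other filters, rescaling to a sum of 1000000, quantile normalization, eBayes without a trend, the 2 compared groups only, the replicate number as a block, aligned reads as a covariate, and leaving out each library. Same-numbered libraries did not deviate together (r from -0.03 to 0.04 over 9 pairs).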

Additional observations from a re-analysis of the deposited data

Results flagged for a closer look

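Over the 6 tumor-associated libraries, 3 of 31 results had a sample far from the others by Dixon's gap test at its 95% level. Chance flags about 1 in 20 groups of normally distributed values that were not selected. The 31 results include genes named for their large differences and join both tumors, so that rate is no reference for them. Cox8b was at 21.9 FPKM in B16 replicate 2 and listed at 0 in the other 5. Ndufb3, an accessory subunit of complex I, was at 184 FPKM in GL261 replicate 3 and at 378 to 447 FPKM in the other 5. Ndufs1, a core iron-sulfur subunit of complex I, was at 50.1 FPKM in GL261 replicate 3 and at 9.46 to 15.7 FPKM in the other 5.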

How the results depend on the processing

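The number of called respiratory chain genes in GL261 against control fell from 1 to 0 after rescaling, after quantile normalization, without a trend, with aligned reads as a covariate and with the replicate block, and ranged from 0 to 1 over fits that left out 1 library. The replicate block gave Ndufa12 an adjusted p of 0.0637 and changed no other call of a respiratory chain gene. Without control replicate 2 the 1 called gene was Atp5k. With the tumors joined the count rose from 0 to 1 with a filter at a mean of 10 FPKM, and ranged from 0 to 1 over fits without 1 library: Ndufs6 was called without control replicate 1, Ndufs4 without control replicate 2 and Ndufa12 without B16 replicate 1. In B16 against control the count rose to 1 (Cox4i1) with a pseudocount of 0.1 and with the filter at a mean of 10 FPKM. The median difference moved to -0.046 (rescaled), -0.10 (quantile) and -0.27 (aligned reads) in GL261, to -0.046 (quantile) and -0.11 (aligned reads) with the tumors joined, and to -0.14 (aligned reads) in B16. With aligned reads as a covariate the direction turned for Cox6b2 with the tumors joined (-1.48), in GL261 (-8.56) and in B16 (-3.14), for Cox5a in GL261 (-0.65) and against B16 (-0.094), for Ndufaf3 in GL261 (-3.93) and against B16 (-1.06), and in GL261 for Ndufs4 (-0.43) and Atp5k (-0.31). Cox6b2 in GL261 against B16 ranged from -2.43 to 0.53 over fits without 1 library and turned without GL261 replicate 3 (0.53) and without B16 replicate 3 (0.30). Without the gene of highest mean FPKM the control share was 4.84%. The causes were not tested. Aligned reads follow tumor status in these libraries, so that fit cannot tell them apart. No group held more than 3 libraries. The rescaled counts of genes without overlap, and the lymphatic sum without Ccl21c, were alternatives chosen after seeing the data.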
